A study of Mus musculus with 35 samples.

Results

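Aortas of mice lacking apolipoprotein E (EKO) were compared after 22 weeks on a Western diet (WD) and after 22 weeks on chow, over every gene of the deposited table. The 6 libraries, 3 for each diet, were taken by their titles from the 35 of the series, and 14157 of 14174 genes were tested. The EKO mice were on the C57BL/6 strain, started a diet at 8 weeks of age and were 30 weeks old at the end; the chow was 4RF21 and the WD was TD.88137. Both groups carried the same loss of Apoe, and the labels used here name no other allele in them and no sex. Each aorta was cut out from root to iliac bifurcation after perfusion with buffered saline, and the fat around it was taken off before total RNA was extracted. The series crosses 3 genotypes, 2 diets and 2 durations in 12 groups, and all 12 entered the fit that set the spread behind each p-value. From the series, 3 other diet pairs also served to test whether a difference was of another size in the EKO pair at 22 weeks. These were wild type (WT) C57BL/6 mice at 22 weeks, EKO mice at 6 weeks (14 weeks old) and, at 22 weeks, EKO/hA-I mice, which are EKO mice with human apoA-I, the protein on which high-density lipoprotein forms.

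Apolipoprotein E is the ligand through which the liver removes remnant lipoproteins from blood, and mice without it develop atherosclerosis that a fat- and cholesterol-rich diet speeds up. Macrophages of the artery wall take up retained lipoproteins, split their cholesteryl esters in lysosomes, store part of the cholesterol in droplets as foam cells and export part of it to high-density lipoprotein. Smooth muscle cells of a growing plaque turn from contraction to the making of matrix, and some take on features of cartilage.

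The deposited values are normalised signal per gene and library, comparable between libraries but not per length, so levels are compared between libraries and not between genes. The 6 columns summed to 978930 to 1137737, and the step between their low values put 11100000 to 21290000 reads behind each. Between 19 and 89 genes were at 0 in a library. Correlations of log2 values were 0.959 to 0.983 within a diet and 0.912 to 0.957 between diets. Apoe read 29.7, 21.9 and 21.2 on WD and 19.5, 11.2 and 15.8 on chow, against 415.6 to 1275.5 in the 12 WT libraries, as the genotype labels have it. Aorta markers were high in all 6 libraries, with Myh11 at 1492.8 or more, Eln at 1874.6 or more and Cdh5 at 204.4 or more. Ucp1, which brown fat alone is known to express strongly, was also present in all 6, at 603.0 to 4490.6. WD replicate 1 stood apart with the lowest brown adipocyte and respiratory chain signal. For many results that rest on it, the count or adjusted p without it is given. Y-linked genes were absent from WD replicate 1 and from chow replicates 1 and 2 and present in the other 3 libraries. With a term for that difference in the fit, 2034 genes rose and 735 fell, against 1964 and 680 without it.

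Each difference is WD minus chow on the log2(value + 1) scale, given with its SE and n = 3 in each group and tested with limma in 1 fit of the 35 libraries. This scale understates the change of genes with low values. A gene is said to have risen or fallen where its Benjamini-Hochberg adjusted p was under 0.05. Nothing in the labels says more of the replicates than that they are separate samples. A p-value therefore reflects no more than the spread between libraries, pooled over the 12 groups, and part of that spread may be technical. Y-linked genes differed between libraries of the same diet, as given above, so the libraries of a diet do not all come from 1 animal. Because whole vessels were sequenced, more cells of a type and more RNA per cell cannot be told apart. In the comparison of the 2 diets in EKO at 22 weeks, calls of named genes held in all 6 fits that each left out 1 library, unless a loss is stated.

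WD changed 2644 of the 14157 genes, or 18.7%. The 1964 that rose made up 13.9% and the 680 that fell 4.80%, and these are the shares against which the counts of each gene group below are to be read. The values of the 2 diets did not overlap for 37.0% of genes, 22.9% with WD higher and 14.0% with chow higher. A difference of at least 1 on the log2 scale was reached by 772 of the genes that rose and 138 of those that fell, while the median gene moved by 0.02. Of the rises, 1067 (54.3%) passed in every fit that left out 1 library. Of the falls, 107 (15.7%) did so. Without WD replicate 1 the counts were 1229 and 174, without chow replicate 1 they were 1695 and 396, and without chow replicate 3 they were 1471 and 297.

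The genes that rose most were those of lipid-laden macrophages, of matrix breakdown and of cartilage. Spp1, which encodes the secreted matrix protein osteopontin, read 11159.6, 6933.8 and 10718.2 on WD and 571.6, 353.9 and 277.7 on chow (log2 fold change 4.61 ± 1.24, adjusted p = 0.0098). Mmp13, a collagenase, read 69.7, 41.6 and 57.2 on WD and 3.14, 2.56 and 1.6 on chow (4.05 ± 0.46, adjusted p = 7.8e-07). In both genes the lowest WD library lay more than 10 times above the highest chow library. Col2a1, the fibrillar collagen of cartilage, read 44.7, 17.0 and 46.6 against 0.668, 6.48 and 0.0998 (3.83 ± 0.70, adjusted p = 0.00028), with 1 chow library well above the other two. Cemip, which binds and breaks down hyaluronan, read 74.9, 41.9 and 87.9 against 7.48, 3.62 and 1.6 (3.82 ± 0.41, adjusted p = 3.7e-07). Prg4, the joint lubricant proteoglycan, read 834.2, 337.3 and 239.3 against 53.0, 23.2 and 32.6 (3.53 ± 0.65, adjusted p = 0.00033). None of these 5 genes had overlapping diets, which the rule for naming leading genes requires, although the WD libraries themselves differed for Prg4.

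The other leading rises belong mostly to myeloid cells. Itgax, the CD11c integrin of dendritic cells and foamy macrophages, read 343.7, 267.6 and 511.8 on WD and 36.5, 24.9 and 31.3 on chow (3.52 ± 0.56, adjusted p = 5.2e-05). Gpnmb, a membrane glycoprotein of lipid-laden macrophages, read 4888.4, 3657.6 and 7845.9 against 465.8, 410.7 and 564.3 (3.45 ± 0.77, adjusted p = 0.0023). Mmp12, the macrophage elastase, read 816.1, 682.6 and 1016.4 against 77.3, 67.8 and 101.1 (3.34 ± 0.81, adjusted p = 0.0047). The chow libraries of these 3 genes were close to one another and lay far under every WD library. The inhibitory receptors Lilr4b (3.47 ± 0.44) and Lilrb4a (3.29 ± 0.43), the acute-phase gene Saa3 (3.45 ± 0.88), the ubiquitin ligase Rnf128 (3.25 ± 0.53) and the platelet and leukocyte protein Plek (3.25 ± 0.33) rose by similar amounts. Thbs1, the matricellular protein thrombospondin-1, read 1413.1, 855.2 and 1171.2 against 166.6, 100.6 and 81.2 (3.33 ± 0.51, adjusted p = 2.9e-05). Lilr4b and Lilrb4a are near-identical neighbours, so reads may be split between them.

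**Figure D1:**
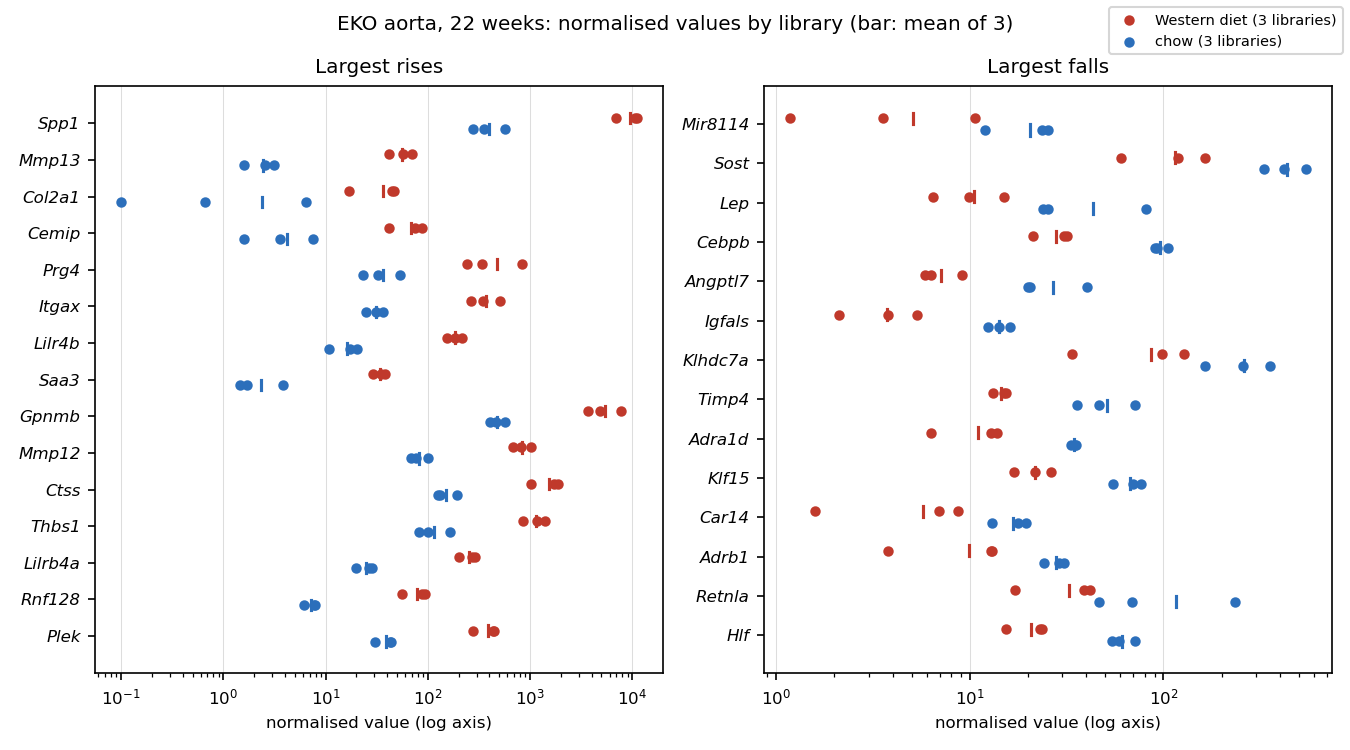
Normalised value of each library (horizontal log axis, no unit) for the 15 largest rises and 14 of the 15 largest falls, with WD in red, chow in blue and a bar at the mean of 3. The diets do not overlap in any gene shown, which the naming rule requires, and the chow values of Col2a1 spread from 0.0998 to 6.48.

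The falls were smaller and less uniform. Klf15, a transcription factor of muscle and fat metabolism, read 26.3, 16.9 and 21.7 on WD and 55.2, 76.7 and 69.3 on chow (-1.6 ± 0.29, adjusted p = 0.00029). Timp4, a metalloproteinase inhibitor, read 15.1, 13.2 and 15.3 against 35.6, 46.6 and 71.5 (-1.69 ± 0.34, adjusted p = 0.00067). Cebpb, a transcription factor of adipocytes and of the acute phase, read 21.3, 30.6 and 31.7 against 105.8, 92.4 and 90.6 (-1.77 ± 0.42, adjusted p = 0.0038). These 3 of the 15 leading falls kept their call whichever library was left out. Mir8114 (-2.07 ± 0.65), a microRNA gene at low values, passed in 2 of the 6 such fits and lost its call without WD replicate 2 or 3 or chow replicate 1 or 3 (adjusted p = 0.057, 0.16, 0.081 and 0.10). Sost, the Wnt antagonist sclerostin, read 164.3, 60.2 and 119.1 against 422.0, 546.4 and 330.8 (-1.99 ± 0.68, adjusted p = 0.041). Leaving out any 1 of the 6 libraries took Sost past the threshold, to an adjusted p of 0.055 to 0.14. Lep, the adipocyte hormone leptin, read 6.49, 9.91 and 15.1 against 81.0, 25.3 and 23.8 (-1.78 ± 0.63, adjusted p = 0.048), and it too lost its call with each library left out, at 0.051 to 0.23. Adra1d (-1.63 ± 0.41) and Adrb1 (-1.56 ± 0.43), which encode adrenergic receptors, each lost the call without WD replicate 1 alone (adjusted p = 0.066 and 0.14). Angptl7 (-1.74 ± 0.48) and Klhdc7a (-1.70 ± 0.47) lost it without WD replicate 1 (0.059 and 0.14) and without chow replicate 1 (0.072 and 0.062). Hlf (-1.54 ± 0.46) lost it without WD replicate 3 (0.081) and chow replicate 2 (0.064). Igfals (-1.73 ± 0.52) lost it without WD replicate 2 (0.078) and chow replicates 1 (0.063) and 3 (0.056), and Car14 (-1.58 ± 0.53) without WD replicate 1 (0.30) and each chow library (0.050 to 0.11). Retnla, a gene of alternatively activated macrophages, had chow values of 233.9, 46.5 and 68.5 (-1.55 ± 0.44); without the first of them its difference was -0.87 (adjusted p = 0.14), and without WD replicate 2 its adjusted p was 0.084.

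Every macrophage marker rose, 18 of 18, with a median log2 difference of 2.11. Msr1, a scavenger receptor for modified lipoproteins, read 121.4, 95.4 and 131.8 on WD and 11.7, 11.5 and 13.3 on chow (3.14 ± 0.40, adjusted p = 3.5e-06). Cd68 read 413.0, 345.4 and 586.2 against 85.1, 48.3 and 63.8 (2.75 ± 0.45), and the lysozyme gene Lyz2 read 4509.3, 3760.2 and 5935.0 against 920.5, 715.8 and 639.1 (2.63 ± 0.45). The adaptor Tyrobp rose by 2.40 ± 0.36. Chow replicate 1 carried the most macrophage RNA of the chow group, with a summed signal of 2043.8 against 1309.5 and 1330.2, and every WD library lay above it, at 6457.0 to 9660.8. Csf1r, the receptor for the growth factor on which macrophages depend, was near the lower end of the list, going from 172.0, 78.2 and 104.6 on chow to 242.9, 253.8 and 298.4 (1.23 ± 0.28, adjusted p = 0.003).

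Genes of foamy, TREM2-type macrophages followed, with 14 of 18 risen and a median of 2.27, and all 14 held in each fit that left out 1 library. Trem2, a receptor for lipids and apoptotic cells, read 224.6, 188.7 and 301.9 against 32.1, 22.5 and 28.3 (3.05 ± 0.60, adjusted p = 0.00058). Lgals3, or galectin-3, read 1189.2, 754.1 and 1091.9 against 130.7, 102.9 and 116.2 (3.09 ± 0.49). Capg (2.24), Pld3 (2.05), Slc37a2 (2.90) and Fabp5 (2.00) rose with them. Of the 4 that did not pass, Cd5l read 1252.0, 1349.0 and 2155.4 against 333.6, 361.7 and 245.5 (2.31 ± 1.05, adjusted p = 0.13), with the diets far apart; it passed with the compared groups alone in the fit (0.0028) and at a pseudocount of 5 (0.031). The other three are genes that fat cells express too: Plin2 at 0.59 ± 0.36 (adjusted p = 0.28; 1.04 and 0.0089 with a term for brown adipocyte signal in the fit), Lpl at -0.11 ± 0.51 (0.90) and Fabp4 at -0.71 ± 0.38 (0.20). This list, like every gene list used here, was put together with results of these libraries known. The count of a list, here and in the other paragraphs, is therefore no separate evidence of its direction.

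Genes of resident macrophages of the adventitia did not share that course. Of 15, 4 rose and 1 fell, with a median of -0.25; 2 rose without WD replicate 1 or 3, and 1 without chow replicate 2 or 3. Fcrls, whose WD values of 86.1, 92.7 and 100.8 stood against 53.8, 19.6 and 19.7, rose by 1.72 ± 0.38 (adjusted p = 0.0022). Mrc1 (1.11 ± 0.33) and Folr2 (1.09 ± 0.33) rose in the fit of all libraries and passed in 3 and 2 of the 6 fits that left one out. Both lost the call without WD replicate 1 (adjusted p = 0.093 and 0.091), chow replicate 2 (0.10 for both) or chow replicate 3 (0.11 and 0.089), and Folr2 also without WD replicate 3 (0.051). The eosinophil chemokine Ccl24 was low, at 0.786, 1.22 and 0.962 against 2.94, 2.19 and 2.3 (-0.80 ± 0.22, adjusted p = 0.01), and lost its call without WD replicate 1 (0.061) or chow replicate 1 (0.051). Lyve1, a hyaluronan receptor of these cells, read 37.1, 27.7 and 23.6 against 36.1, 22.3 and 51.5 (-0.25 ± 0.35, adjusted p = 0.65), so the diets overlapped. Timd4 (-0.75 ± 0.39, adjusted p = 0.19) and Cd163 (-0.22 ± 0.35, adjusted p = 0.70) did not pass either.

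Phagocyte signalling and killing genes rose as a block. All 15 Fc receptor and ITAM signalling genes rose (median 2.12), led by Sirpa (2.24), Lilrb4a, Fcgr3 (2.18) and Tyrobp, and 5 of 6 subunits of the phagocyte NADPH oxidase did. Its catalytic subunit Cybb read 243.6, 187.7 and 217.4 against 64.0, 28.6 and 40.5 (2.33 ± 0.36, adjusted p = 3.5e-05), and Ncf4 (2.01) and Cyba (1.87) rose by similar amounts. Several lists share members, as here with Tyrobp, so their counts are not independent.

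**Figure D2:**
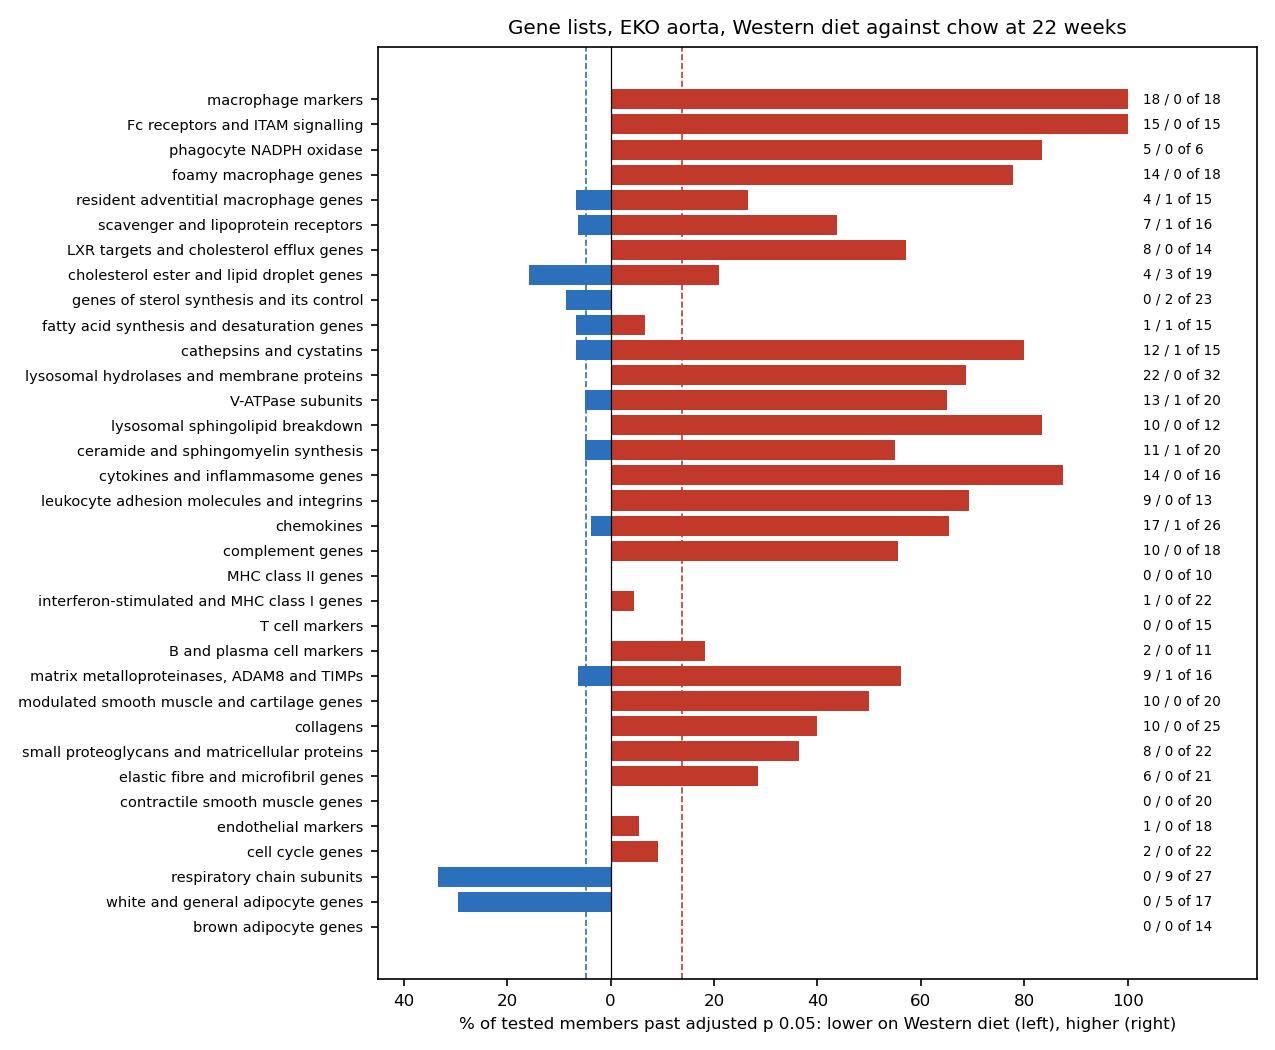
Share of the tested members of 34 gene lists (horizontal axis, %) that rose (red, right) or fell (blue, left) on WD, with dashed lines at the shares of all genes, 13.9% and 4.80%, and the numbers that rose, fell and were tested at the right. All 18 macrophage markers, all 15 Fc receptor genes and 22 of 32 lysosomal hydrolases rose, while sterol synthesis, T cell and contractile genes have 0 risen.

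Lipid handling genes split by step. Among uptake receptors, 7 of 16 rose and 1 fell. Olr1, the receptor LOX-1 for oxidised lipoprotein, was low on chow, at 1.14, 0.754 and 1.7, and read 6.56, 15.2 and 11.6 on WD (2.42 ± 0.31, adjusted p = 3.5e-06). Cxcl16, which serves as scavenger receptor and chemokine, rose by 2.70 ± 0.30. Cd36 did not pass, with WD values of 1180.6, 1312.8 and 1176.4 inside the chow range of 995.9 to 2017.3 (-0.15 ± 0.41, adjusted p = 0.83). Vldlr, which takes up triglyceride-rich lipoprotein, read 96.8, 90.1 and 84.3 against 119.7, 134.4 and 177.4 (-0.65 ± 0.16, adjusted p = 0.0056; 0.060 without chow replicate 3).

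Of 19 cholesteryl ester and lipid droplet genes, 4 rose and 3 fell. Of those that rose, 3 act on cholesterol or its esters. Soat1, which esterifies cholesterol for storage, read 143.8, 90.8 and 138.7 against 27.7, 26.9 and 21.2 (2.24 ± 0.26, adjusted p = 1.2e-06). Nceh1, a neutral cholesteryl ester hydrolase, read 139.5, 87.1 and 129.1 against 20, 20.8 and 20.8 (2.45 ± 0.38). Lipa, the lysosomal acid lipase, read 500.3, 469.2 and 593.7 against 145.9, 131.8 and 213.4 (1.69 ± 0.27), and Hilpda, a droplet protein induced by hypoxia, rose by 0.94 ± 0.20. The 3 that fell act on triglyceride: Dgat2 (-1.51 ± 0.47), G0s2 (-1.20 ± 0.38) and Pnpla2 (-1.15 ± 0.38). None of those 3 passed without WD replicate 1 (adjusted p = 0.22, 0.22 and 0.24), chow replicate 1 (0.068, 0.062 and 0.082) or chow replicate 3 (0.11, 0.065 and 0.17), and all 3 are genes of fat cells too. G0s2 also lost its call without chow replicate 2 (0.073) and Pnpla2 without WD replicate 3 (0.066). Without WD replicate 2, 7 genes of the list fell.

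Export genes rose while sterol synthesis genes did not. Among 14 targets of the oxysterol receptor LXR and genes of cholesterol efflux, 8 rose and 0 fell. The number risen was 6 without WD replicate 1 and without chow replicate 2. Abcg1 read 433.6, 321.4 and 460.4 against 107.4, 55.4 and 72.2 (2.39 ± 0.34, adjusted p = 1.4e-05), and Abca1 read 842.6, 659.5 and 743.7 against 288.4, 216.6 and 247.6 (1.58 ± 0.36, adjusted p = 0.0027). Both encode transporters that load cholesterol onto lipoproteins. Arl4c (2.05), Pltp (1.68), which transfers phospholipid in plasma, and Npc1 (1.04), which carries cholesterol out of the lysosome, also rose. Srebf1, an LXR target that drives fatty acid synthesis, read 222.1, 390.5 and 404.2 against 873.8, 300.9 and 528.2 (-0.66 ± 0.37, adjusted p = 0.22).

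Of 23 genes of sterol synthesis and its control, 0 rose and 2 fell, with a median of -0.48. Fdft1, squalene synthase, read 29.6, 44.9 and 40.4 against 74.7, 66.4 and 132.4 (-1.18 ± 0.30, adjusted p = 0.0071). Tm7sf2 read 4.78, 7.1 and 7.48 against 9.62, 12.1 and 10.5 (-0.67 ± 0.22, adjusted p = 0.031). Without WD replicate 1 their adjusted p was 0.058 and 0.21 and without chow replicate 3 it was 0.072 for both, so that the list then held 0 calls, and Tm7sf2 also missed without chow replicate 2 (0.10). The regulator Srebf2 (-0.59 ± 0.22, adjusted p = 0.058) stayed short of the threshold. Fatty acid synthesis genes gave 1 rise (Elovl1, 0.66) and 1 fall (Mlxipl, -1.30) among 15. Neither passed without WD replicate 1 (adjusted p = 0.091 and 0.38), chow replicate 1 (0.056 and 0.19) or chow replicate 3 (0.15 and 0.12), nor did Elovl1 without WD replicate 3 (0.16) or chow replicate 2 (0.059).

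Lysosomal genes rose in 3 of their groups, and 6 of their promoters hold the palindrome that transcription factors of the MiT/TFE family are known to bind. The sequences below are the 250 bases before the start of 4 lysosomal genes that rose, shown because each holds TCACGTGA, which is printed in capitals. They are from RefSeq, build GRCm38.p6, matched by symbol and written 5′ to 3′ on the strand of the gene.

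Gla, chrX:134601006-134601255, minus strand: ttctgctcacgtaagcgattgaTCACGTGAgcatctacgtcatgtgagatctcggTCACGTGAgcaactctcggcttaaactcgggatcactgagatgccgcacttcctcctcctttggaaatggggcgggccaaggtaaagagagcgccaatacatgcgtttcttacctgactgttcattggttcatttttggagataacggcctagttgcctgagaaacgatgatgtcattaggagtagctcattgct

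Ctsd, chr7:142387828-142388077, minus strand: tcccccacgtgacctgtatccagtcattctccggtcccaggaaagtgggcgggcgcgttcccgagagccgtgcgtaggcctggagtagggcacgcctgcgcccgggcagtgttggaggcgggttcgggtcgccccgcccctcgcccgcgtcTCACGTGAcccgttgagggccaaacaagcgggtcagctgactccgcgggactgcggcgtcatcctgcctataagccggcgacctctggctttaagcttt

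Ctsa, chr2:164833523-164833772, plus strand: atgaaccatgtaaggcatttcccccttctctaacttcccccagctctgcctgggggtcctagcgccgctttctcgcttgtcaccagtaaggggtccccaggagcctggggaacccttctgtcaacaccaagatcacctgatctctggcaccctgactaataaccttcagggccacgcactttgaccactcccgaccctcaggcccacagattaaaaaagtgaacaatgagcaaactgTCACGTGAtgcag

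Atp6v1a, chr16:44139260-44139509, minus strand: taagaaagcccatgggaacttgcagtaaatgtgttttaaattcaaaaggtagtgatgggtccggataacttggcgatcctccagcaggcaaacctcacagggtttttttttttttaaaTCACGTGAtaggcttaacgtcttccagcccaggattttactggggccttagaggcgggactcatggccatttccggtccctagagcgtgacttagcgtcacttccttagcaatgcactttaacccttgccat

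Gla holds the motif at 2 places. Of the 67 cathepsin, V-ATPase, hydrolase and membrane protein genes, 52 were in the promoter table, and TCACGTGA on either strand was found in 6 of them (11.5%), the others being Cln3 and Mcoln1. It was found in 1.63% of 10750 tested genes and in 0.907% of all 27025 genes of the table. The shorter CACGTG, which every copy of the longer motif contains, stood in 17 of the 52 (32.7%), against 9.51% of tested genes. Among the 34 of the 52 that rose, 5 held TCACGTGA (14.7%) and 11 held CACGTG (32.4%). Among the 18 that did not rise, 1 (5.56%) and 6 (33.3%) did. A match describes letters in a window and is not a bound site.

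Cathepsins, the proteases of the lysosome, rose in 12 of 15 cases with their cystatin inhibitors counted in, and all 12 held in each fit that left out 1 library. Ctss, which cuts elastin and the invariant chain, read 1721.9, 1028.1 and 1892.4 against 195.2, 125.2 and 132.5 (3.33 ± 0.55, adjusted p = 9.3e-05). Ctsk, a collagen- and elastin-cutting cathepsin, read 342.2, 142.7 and 259.0 against 37.7, 34.1 and 27.9 (2.78 ± 0.35). Ctsl read 3771.2, 2495.9 and 5186.7 against 596.9, 589.7 and 554.2 (2.65 ± 0.24, adjusted p = 7.2e-08). The chow values of Ctsl were close to each other, and the lowest WD value was far above them. Ctsd, whose promoter is printed above, read 6246.0, 5432.4 and 9067.8 against 2182.8, 1763.2 and 2260.0 (1.71 ± 0.20). Lgmn (2.15), Ctsb (1.79) and Ctsa (1.29) rose too. Ctsf, alone in the list, fell, from 78.4, 78.2 and 85.0 to 48.7, 58.0 and 52.9 (-0.59 ± 0.10, adjusted p = 0.00017), and Cst3, the secreted inhibitor cystatin C, did not pass (-0.08 ± 0.20).

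The proton pump that acidifies the lysosome, the V-ATPase, had 13 of 20 subunit genes risen and 1 fallen. Without WD replicate 1 there were 10 rises and 0 falls, and these 10 rises held in each fit that left out 1 library. Atp6v0d2, a subunit of macrophages and osteoclasts, read 270.1, 165.5 and 335.5 against 23.3, 23.1 and 32.3 (3.20 ± 0.69, adjusted p = 0.0016). Tcirg1, the a3 subunit of osteoclasts and macrophages, rose by 1.62 ± 0.20. Subunits found in every cell moved less: Atp6v1a, with its promoter above, read 347.6, 266.7 and 347.3 against 140.0, 160.3 and 170.1 (1.02 ± 0.16), and Atp6v1c1 (0.98) and Atp6ap2 (0.94) were alike. The smallest rise, of Atp6v0d1 (0.37), held only without WD replicate 2 and was lost in the other 5 fits that left out a library (adjusted p = 0.051 to 0.14) and with the compared groups alone in the fit (0.11). Atp6v0e2 fell by 0.97 on the log2 scale with an SE of 0.33 (adjusted p = 0.042). It lost that call without WD replicate 1 (0.23) or 2 (0.054) and without chow replicate 1 (0.081) or 2 (0.19).

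Of 32 hydrolases and membrane proteins of the lysosome, 22 rose and 0 fell. Gla, the galactosidase of globotriaosylceramide, read 81.4, 55.0 and 81.0 against 14.0, 13.2 and 11.8 (2.37 ± 0.19, adjusted p = 2e-08). Gusb, a glucuronidase, read 490.0, 442.8 and 580.7 against 114.4, 87.2 and 105.8 (2.29 ± 0.21). Hexa (1.49) and Lamp2 (0.90) also rose, and the major membrane protein Lamp1 rose by 0.51 ± 0.13 (adjusted p = 0.11 with the compared groups alone in the fit). Sgsh (0.49 ± 0.21, adjusted p = 0.11), which degrades heparan sulfate, and the membrane protein Scarb2 (0.21 ± 0.14, adjusted p = 0.32) were among the 10 that did not pass. Mcoln1, the lysosomal calcium channel and the gene with the motif that did not rise, read 49.9, 46.4 and 51.1 against 41.4, 38.1 and 45.8 (0.23 ± 0.11, adjusted p = 0.13).

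**Figure D3:**
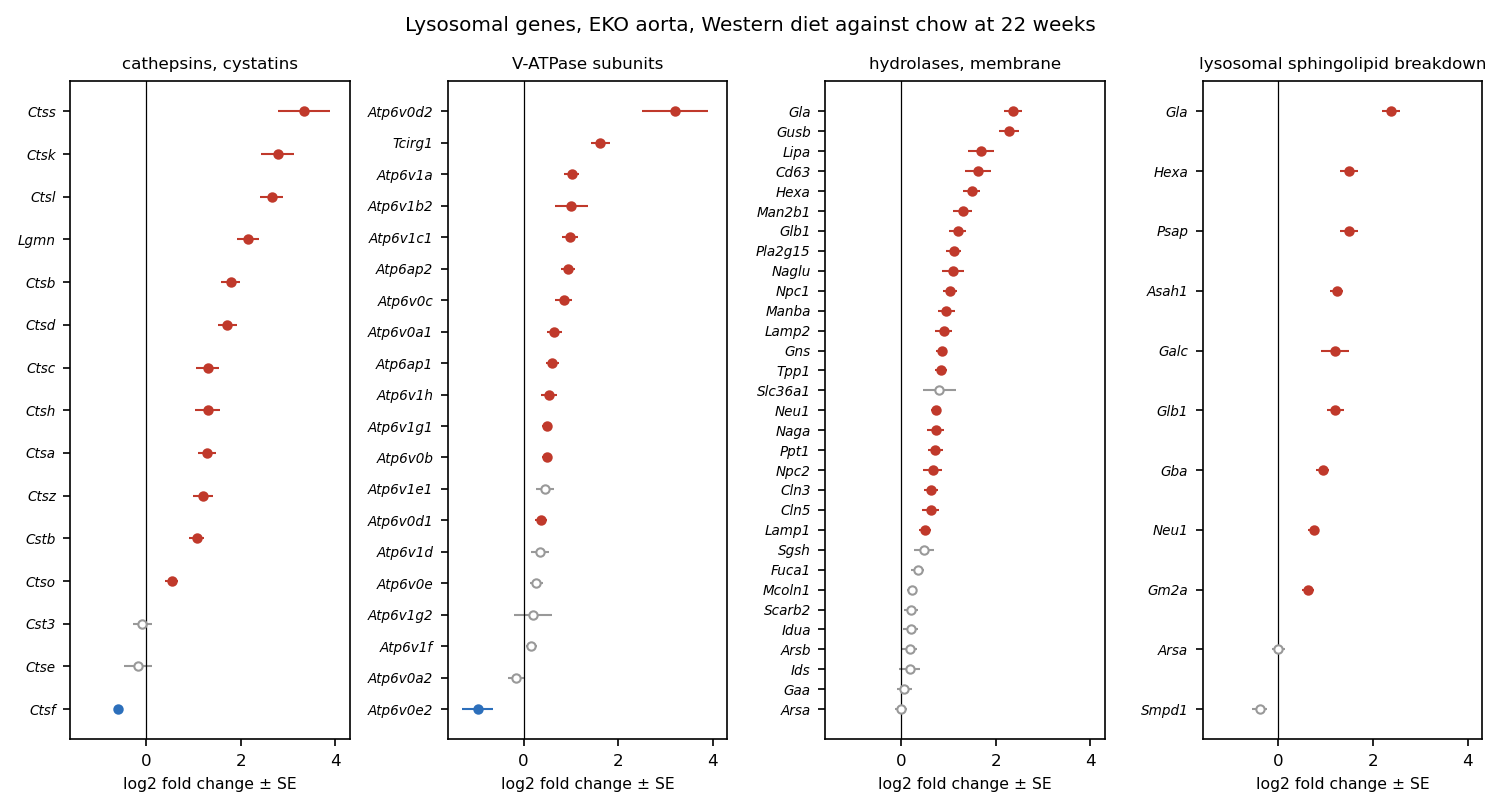
Log2 fold change ± SE (horizontal axis) of the tested cathepsin, V-ATPase, hydrolase or membrane, and sphingolipid breakdown genes, 1 gene left out, filled red where it rose, filled blue where it fell and open where it did not pass. Most points lie right of 0, from 0.37 (Atp6v0d1) to 3.33 (Ctss) for those that rose, and Ctsf and Atp6v0e2 are the filled points on the left.

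Of the 4 MiT/TFE factors, Tfec read 9.89, 6.08 and 9.62 against 2.27, 1.66 and 1.7 (1.71 ± 0.24, adjusted p = 1.3e-05), and Mitf read 37.1, 24 and 26.3 against 13.4, 13 and 15.6 (0.99 ± 0.17). Tfe3 rose by 0.28 ± 0.09 (adjusted p = 0.034), a call lost without WD replicate 3 (0.17) or chow replicate 1 (0.054) or 2 (0.14). Tfeb, which is regulated mainly by where in the cell it sits, read 34.0, 36.5 and 39.5 against 51.8, 44.0 and 37.2 (-0.26 ± 0.20, adjusted p = 0.40).

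Sphingolipid genes rose at both ends of the pathway. Lysosomal breakdown had 10 of 12 genes risen, and all 10 held whichever library was left out. Psap, the precursor of the activators that these enzymes need, read 7704.4, 7180.4 and 11490.5 against 3325.0, 2722.8 and 3174.8 (1.49 ± 0.19). Asah1, the acid ceramidase, read 231.6, 160.8 and 211.4 against 86.8, 82.6 and 84.1 (1.23 ± 0.14, adjusted p = 7.9e-07), and Gla and Hexa are on this list as well. The acid sphingomyelinase Smpd1 differed from them, at 73.2, 109.6 and 98.4 against 119.9, 104.4 and 145.0 (-0.40 ± 0.15, adjusted p = 0.066; 0.027 without WD replicate 2 and 0.038 without chow replicate 2).

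Ceramide and sphingomyelin synthesis had 11 of 20 risen and 1 fallen, and without WD replicate 1 the number risen was 7. B4galt5, which makes lactosylceramide, read 149.6, 118.7 and 163.6 against 49.2, 38.7 and 31.0 (1.85 ± 0.22, adjusted p = 1.4e-06). The ceramide synthase Cers6 (1.67 ± 0.28), Sptlc2 (0.92 ± 0.12), a subunit of the enzyme of the first step, and Ugcg (0.92 ± 0.15), which starts glycolipid synthesis, rose and held. Ormdl3, an inhibitor of the first step, read 144.8, 221.9 and 203.6 against 311.6, 308.6 and 398.0 (-0.85 ± 0.24, adjusted p = 0.013; 0.11 without WD replicate 1 and 0.075 without chow replicate 3). Of 14 sphingosine 1-phosphate genes, Sphk1, the kinase that makes it, rose from 4.68, 3.69 and 4.39 to 20.2, 15.9 and 15.9 (1.80 ± 0.33, adjusted p = 0.00028). The ceramidase Acer3 (1.13) and the receptor S1pr2 (1.16) rose with it, and 0 fell.

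Inflammatory mediators rose broadly. Of 26 chemokines 17 rose and 1 fell, and without WD replicate 1 the number risen was 11. Ccl2, which draws monocytes, read 22.1, 32.9 and 24.4 against 5.81, 3.69 and 3.3 (2.39 ± 0.42, adjusted p = 0.00019). Cx3cl1, or fractalkine, read 118.6, 156.7 and 143.1 against 24.7, 34.0 and 23.9 (2.31 ± 0.30), and Ccl3 (2.08) and the neutrophil chemokine Cxcl1 (2.60) rose too. Among 16 cytokine and inflammasome genes, 14 rose, with a median of 1.28. Il1rn, the antagonist of interleukin-1, read 82.3, 64.5 and 70.3 against 8.3, 7.04 and 7.92 (3.06 ± 0.52, adjusted p = 0.00012), whereas Il1b read 6.49, 10.3 and 6.89 against 1.87, 2.11 and 6.99 (1.08 ± 0.41, adjusted p = 0.071). Chow replicate 3 overlapped WD, and without it the difference was 1.55 (adjusted p = 0.015). Casp4 (1.71), Il1a (2.10), Nlrp3 (1.42) and the endotoxin receptor Tlr4 (1.27) rose, and Il6 rose from 0.134, 0.377 and 0.2 to 2.69, 11.9 and 4.97 (2.41 ± 0.44).

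Of 13 adhesion molecules and integrins, 9 were higher in every WD library than in any chow library, against 22.9% of all genes. Which cells of the vessel gave that signal was not tested. Vcam1 read 494.6, 576.9 and 541.3 against 107.2, 97.3 and 106.3 (2.36 ± 0.33, adjusted p = 1.1e-05). Sele (2.33 ± 0.43) and Selp (2.04 ± 0.43), the selectins on which leukocytes roll, and Icam1 (0.87 ± 0.23) rose as well. The list of 13 adhesion molecules and integrins had 9 risen, Itgb2 (2.38) and Itgax among them. General endothelial markers moved little, with 1 of 18 risen, Angpt2 (0.95, adjusted p = 0.023), and that call was lost without WD replicate 1 (0.088) or 3 (0.056) or chow replicate 3 (0.11). Cdh5, the junction protein of endothelium, read 251.0, 308.9 and 294.3 against 221.1, 204.4 and 301.1 (0.25 ± 0.24, adjusted p = 0.51).

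Complement genes rose in 10 of 18 cases, in 6 without any 1 of the WD libraries and in 5 without chow replicate 2. The recognition chains C1qa (1.96), C1qb (2.20) and C1qc (2.00) and the receptor C3ar1, at 241.6, 179.4 and 237.7 against 41.6, 19.1 and 25.7 (2.95 ± 0.42), held throughout. C3 itself read 2587.5, 3538.6 and 2974.8 against 3802.3, 1548.3 and 3273.8 (0.17 ± 0.45, adjusted p = 0.83). Antigen presentation by MHC class II passed in 0 of 10 genes, although H2-Aa read 216.8, 232.9 and 296.5 against 257.6, 112.0 and 65.5 (0.99 ± 0.39, adjusted p = 0.078). Chow replicate 1 overlapped WD there and in Cd74 (0.77 ± 0.39, adjusted p = 0.18), and without it 5 of the 10 rose, H2-Aa by 1.51 (adjusted p = 0.0067) and Cd74 by 1.29 (0.023). Interferon-stimulated and MHC class I genes gave 1 rise of 22, Oas1a (1.40, adjusted p = 0.023), which did not pass without WD replicate 1 (0.11) or 3 (0.054) or chow replicate 2 (0.11) or 3 (0.16). Of the 22, 21 had a positive difference (median 0.31), and without chow replicate 1 the number risen was 8.

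Few lymphocyte markers followed the macrophage markers. T cell markers gave 0 calls of 15 with a median of -0.83. Their summed signal was 84.9, 97.1 and 96.9 on WD and 273.0, 202.7 and 65.0 on chow, so 2 chow libraries lay above WD and 1 below. Cd8a read 2.69, 3.86 and 3.1 against 30.9, 22.2 and 4.59 (-1.94 ± 1.35, adjusted p = 0.34). The B and plasma cell sum was 321.6, 420.5 and 292.4 on WD and 187.9, 117.1 and 77.0 on chow, so every WD library lay above chow. Only 3 of the 11 genes on that list were positive, with a median of -0.24. Of the 11, 2 rose, Sdc1 (2.13) and Cd22 (1.68), both of which other cells express. Cd22 lost its call without WD replicate 1 (0.052) or 3 (0.099) or chow replicate 2 (0.059) or 3 (0.11). Of 9 neutrophil markers, 2 rose, Csf3r (1.25) and Lcn2 (1.97). Neither passed without WD replicate 3 (adjusted p = 0.051 and 0.084) or chow replicate 2 (0.10 and 0.19), nor Csf3r without chow replicate 1 (0.079), nor Lcn2 without WD replicate 1 (0.073) or 2 (0.058). S100a9 stood at 123.0 in chow replicate 3 and at 2.07 to 19.4 in the other 5 libraries. Mast cell and erythroid markers gave 0 calls of 6 and of 8. Cell cycle genes were all positive, 22 of 22, with a median of 0.62, but only Pcna (0.61 ± 0.14, adjusted p = 0.0025) and Tpx2 (0.86 ± 0.30, adjusted p = 0.042) passed. Tpx2 kept its call only in the fit without chow replicate 1, at 0.070 to 0.21 in the other 5. Without chow replicate 1, 5 of the 22 cell cycle genes rose.

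The matrix was altered on the side of breakdown and on that of synthesis. Of 16 metalloproteinase, ADAM8 and TIMP genes, 9 rose and 1, Timp4, fell. Adam8 read 221.8, 195.4 and 230.9 against 37.7, 19.4 and 27.8 (2.93 ± 0.40, adjusted p = 9e-06). Timp1, an inhibitor of metalloproteinases, read 205.2, 178.0 and 168.7 against 31.9, 24.1 and 18.6 (2.87 ± 0.50), and Mmp14, the membrane-bound activator of Mmp2, read 425.9, 414.2 and 536.3 against 98.2, 99.2 and 106.6 (2.16 ± 0.34). Mmp3 rose by 2.20 ± 0.44 and Mmp2 by 1.37 ± 0.31. Mmp9, often named beside these in plaques, read 6.29, 8.51 and 5.82 against 9.02, 8.82 and 25.1 (-0.81 ± 0.38, adjusted p = 0.14). In the plasminogen system 4 of 10 rose, led by the activator Plau, at 72.4, 99.2 and 138.1 against 34.3, 25.3 and 21.4 (1.88 ± 0.22, adjusted p = 8.2e-07), with Plaur (1.46), Anxa2 (1.00) and Tfpi (0.66; adjusted p = 0.055 without WD replicate 1). Tissue factor, F3, fell from 105.6, 106.2 and 81.8 to 44.2, 46.7 and 62.5 (-0.93 ± 0.25, adjusted p = 0.011; 0.065 without WD replicate 1).

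Of 25 collagen genes 10 rose and 0 fell, and without WD replicate 1 the number risen was 7. Col8a1, a short-chain collagen of vessel walls, read 341.2, 192.7 and 237.6 against 32.1, 36.9 and 32.6 (2.85 ± 0.36, adjusted p = 3.2e-06). Col3a1 read 5688.2, 4149.1 and 4865.4 against 1563.6, 1333.6 and 1028.2 (1.91 ± 0.38), and Col1a1 read 4679.3, 3465.2 and 4569.2 against 1499.7, 1248.2 and 940.0 (1.80 ± 0.43, adjusted p = 0.0039). Col5a2 (2.00) and Col12a1 (1.93) rose as well, and 6 collagens passed in every fit that left out 1 library; 6 was also the count without WD replicate 3 and without chow replicate 3. With the brown adipocyte term in the fit 7 collagens rose and 3 fell, and with the 4 tissue terms, described with the contractile genes, 7 rose and 4 fell. The summed signal of the list was 16813.5 to 22708.4 on WD and 7390.0 to 9346.6 on chow. Fn1, fibronectin, read 9759.3, 6703.2 and 7884.3 against 1860.6, 1448.0 and 1638.6 (2.29 ± 0.43). Of 22 small proteoglycans and matricellular proteins, 8 rose, among them Lum, at 1457.7, 1041.4 and 1060.8 against 207.0, 208.5 and 115.6 (2.77 ± 0.42), Thbs1, Wisp1 (1.96) and Tnc (1.92). Without WD replicate 1 or chow replicate 3 the number risen was 4, and without WD replicate 3 or chow replicate 1 it was 5. In the fit with the brown adipocyte term 5 of the 22 rose and 2 fell, and with the 4 tissue terms 5 rose and 3 fell.

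Elastic fibre genes gave 6 rises of 21, and 3 without WD replicate 3 or without chow replicate 3. The crosslinking enzymes Lox (1.78 ± 0.40) and Loxl2 (1.74, adjusted p = 2.6e-05) and the microfibril protein Ltbp2 (2.27 ± 0.36) held throughout, and Loxl4 (0.80) lost its call without WD replicate 3 (0.051) or chow replicate 3 (0.069). Elastin itself, Eln, read 5312.8, 4270.1 and 6618.0 against 1933.6, 1874.6 and 1899.8 (1.48 ± 0.55), which did not overlap but missed the threshold (adjusted p = 0.062). With only the compared groups in the fit Eln passed (adjusted p = 0.011). Elastic fibre genes gave 4 rises and 2 falls with the brown adipocyte term and 4 of each with the 4 tissue terms.

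Genes of modulated smooth muscle and cartilage rose in 10 of 20 cases. Besides Fn1, Lum, Timp1, Cemip and Col2a1 these were Tnfrsf11b (2.17 ± 0.30), the decoy receptor osteoprotegerin, and Runx2, the bone transcription factor, at 13.6, 10.8 and 11.6 against 3.47, 2.89 and 4.63 (1.49 ± 0.28, adjusted p = 0.0003). Ibsp, bone sialoprotein, read 30.4, 4.16 and 5.13 against 0.401, 1.06 and 0.899 (2.50 ± 0.47). WD replicate 1 was the highest there, and without it the difference was 1.67 (adjusted p = 0.0046); with the compared groups alone in the fit Ibsp had an adjusted p of 0.052. Acan, or aggrecan, rose by 1.69 ± 0.51 (adjusted p = 0.022), which was lost without WD replicate 1 (0.12) or 3 (0.075) or chow replicate 1 (0.051) or 3 (0.063). Its difference was 1.16 (0.065) with the brown adipocyte term and 1.07 (0.11) with the 4 tissue terms. The cartilage regulator Sox9 read 5.4, 7.0 and 6.57 against 4.76, 4.07 and 2.5 (0.64 ± 0.34, adjusted p = 0.19). Of 14 Wnt, BMP and hedgehog antagonists, Grem1 (3.00 ± 0.44), Frzb (2.54 ± 0.47) and Sfrp1 (1.05) rose, and Hhip (-1.80) and Sost fell. Sfrp1 lost its call without WD replicate 1 (0.097) or 3 (0.086) or chow replicate 3 (0.063), and Hhip without chow replicate 2 (0.063).

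Contractile smooth muscle genes passed in 0 of 20 cases, with a median of -0.48. Myh11, the smooth muscle myosin heavy chain, read 2327.2, 1492.8 and 2151.0 against 2523.5, 3897.7 and 3308.6 (-0.71 ± 0.49, adjusted p = 0.34). Acta2 read 4103.9, 2179.6 and 3798.8 against 4337.3, 6017.8 and 3768.6 (-0.51 ± 0.49, adjusted p = 0.51), and Synpo2, the member of smallest p, differed by -0.81 ± 0.43 (adjusted p = 0.20). All WD values of Myh11 lay below chow, while Acta2 overlapped. With terms for the signal of brown fat, skeletal muscle, nerve and cardiac muscle in the fit, 15 of the 20 fell, Myh11 and Acta2 included, and with a term for brown fat alone 13 did. Each term is the mean log2 value, in a library, of the gene list of that tissue. The summed signal of the list was 9189.2 to 15090.1 on WD and 16133.2 to 21936.2 on chow. Of 14 contractile genes in the promoter table, 1 (7.14%) held a CArG box, the site of serum response factor, within the 250 bases, against 1.48% of tested genes. Of 16 adventitial fibroblast markers, 0 rose, and Gli1 (-1.39) and Clec3b (-0.91) fell. Neither passed without WD replicate 1 (0.12 and 0.11) or chow replicate 2 (0.069 and 0.082), and Clec3b kept its call only in the fit without chow replicate 3.

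**Figure D4:**
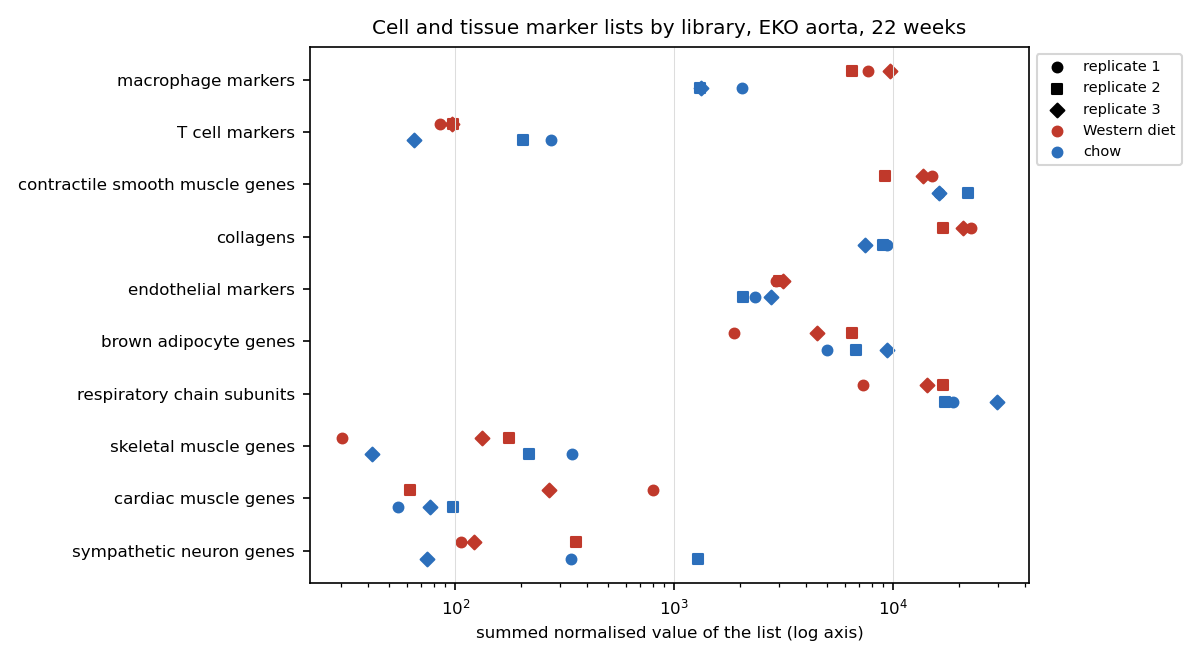
Summed normalised value (horizontal log axis, no unit) of 10 marker lists in each of the 6 libraries, WD in red and chow in blue, with the replicate given by the shape. Macrophage, collagen and endothelial sums separate the diets with WD above chow, and contractile and respiratory chain sums separate them with WD below chow. WD replicate 1 has the lowest brown adipocyte sum (1868.5) and the highest cardiac muscle sum (795.2).

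Lists of fat and mitochondrial genes had negative medians, at -0.84 for brown adipocyte, -0.86 for white and general adipocyte and -0.82 for respiratory chain genes. Their calls depended on which library was left out. Brown adipocyte genes summed to 1868.5, 6487.5 and 4491.1 on WD and to 4988.3, 6768.0 and 9407.9 on chow, and 0 of 14 passed. Ucp1, the uncoupling protein of brown fat, read 603.0, 3266.6 and 2232.8 against 2333.5, 3350.1 and 4490.6 (-1.0 ± 0.54, adjusted p = 0.20). Without WD replicate 1 that difference came to -0.28. Of 17 white and general adipocyte genes 5 fell: Adipoq, the hormone adiponectin, at 339.0, 373.4 and 303.9 against 746.1, 659.3 and 885.7 (-1.16 ± 0.40, adjusted p = 0.041), and Lep, Retn (-2.0), Slc2a4 (-1.16) and Pnpla2. Of the 17, 2 fell with the brown adipocyte term in the fit and 0 with the 4 tissue terms. None of the 5 passed in every fit that left out 1 library. Adipoq passed in 0 of the 6 (adjusted p = 0.055 to 0.13), without WD replicate 1 only Retn passed (0.0094), and 0 of the list passed without chow replicate 1, 1 without WD replicate 3 or chow replicate 3 and 2 without chow replicate 2. Slc2a4 also missed without chow replicates 1 (0.15) and 3 (0.085), and Retn without WD replicates 2 (0.18) and 3 (0.082) and chow replicates 1 (0.12) and 2 (0.073). Respiratory chain subunits fell in 9 of 27 cases, for example Cox5b from 413.6, 362.9 and 503.8 to 126.0, 238.7 and 227.2 (-1.15 ± 0.30, adjusted p = 0.0082), Ndufb8 (-1.21), Cox6a1 (-1.20) and Sdhc (-0.94). Without WD replicate 1, 0 of the 27 passed; the adjusted p of Cox5b was then 0.093. Without chow replicate 3, 2 passed, and Ndufb8 (0.060) and Cox6a1 (0.080) were not among them; without WD replicate 2, 15 passed. With the brown adipocyte term in the fit 8 of the 27 fell, and with the 4 tissue terms 4 did. The labels say that periadventitial fat had been removed, and how much of these falls goes with the fat left on each vessel was not tested.

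The terms for other tissues also moved calls of genes named above. With the brown adipocyte term the falls of Mir8114 (adjusted p = 0.050), Igfals (0.060), Car14 (0.11), Dgat2 (0.054), G0s2 (0.080), Mlxipl (0.12) and Tm7sf2 (0.078) and the rises of Elovl1 (0.10), Sfrp1 (0.056) and Tpx2 (0.097) no longer passed. The 4 tissue terms ended these calls too, except that of Mir8114, and also those of Lep (0.064), Klhdc7a (0.072), Adrb1 (0.051), Pnpla2 (0.067) and Lcn2 (0.073). Srebf2, the sterol regulator, passed as a fall with either (0.0054 and 0.015), and H2-Aa and Il1b as rises with the 4 terms (0.049 for both).

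Signals of other tissues varied between libraries without a call. Skeletal muscle genes (13), cardiac muscle genes (11), sympathetic neuron genes (15) and Schwann cell genes (10) had 0 calls each. Their sums ranged within a diet as much as between diets: sympathetic genes summed to 106.6, 354.4 and 121.4 on WD and to 338.8, 1285.0 and 74.5 on chow. Heat shock chaperones, signs of handling among other things, passed in 0 of 10 cases. Of 16 clock genes, Cry2 (-0.70, adjusted p = 0.013) and Hlf fell, Cry2 not without WD replicate 3 (0.057) or chow replicate 2 (0.052), and the hour at which each aorta was taken is not in the labels used here. Among immediate-early genes Egr2 (1.63, adjusted p = 0.0005) and Atf3 (2.10, adjusted p = 0.040) rose and Cebpb fell. Atf3 kept its call only in the fit without WD replicate 2, and lost it with the brown adipocyte term (0.12) or the 4 tissue terms (0.19).

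Iron and redox genes rose in part. Of 15 iron and haem genes 7 rose (4 without chow replicate 2), with Slc11a1, a phagosomal metal transporter, at 119.8, 106.0 and 159.7 against 38.4, 20.8 and 25.8 (2.17 ± 0.28), Ftl1 (1.48 ± 0.22), the ferritin light chain, whose reads may be shared with copies of it, and Blvra (0.56). Hmox1, which breaks down haem, read 142.0, 94.7 and 151.9 against 51.6, 41.2 and 32.5 (1.61 ± 0.22, adjusted p = 1.1e-05). It is also 1 of the 5 of 16 oxidative stress genes that rose, with Gsr (0.69), Prdx1 (0.89), Txnrd1 (0.67) and Srxn1 (0.62). All 5 held in each fit that left out 1 library. The sixth call on that list was a fall of Sod1, from 336.3, 298.3 and 433.1 to 173.5, 226.0 and 242.3 (-0.73 ± 0.20, adjusted p = 0.01; 0.090 without WD replicate 1 and 0.080 without chow replicate 3).

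The size of the diet difference in EKO at 22 weeks was then tested against that of the other pairs, as the difference of 2 differences. In WT mice, 193 genes (1.36%) changed with diet at 22 weeks. The diet difference was more positive in EKO than in WT for 707 genes (4.99%) and more negative for 172 (1.21%), 879 in all (6.21%); without WD replicate 1 of the EKO mice 486 passed. Col2a1 (difference 4.3, adjusted p = 0.0088), Rnf128 (4.21), Mmp13 (3.78), Cemip (3.69) and Itgax (3.18) led the positive side. Mmp13 averaged 0.907 ± 0.502 (SD) in WT on WD and 0.571 ± 0.394 on chow. Cathepsins differed in 8 of 15 cases in the positive direction, lysosomal hydrolases in 11 of 32 and V-ATPase subunits in 10 of 20 and macrophage markers in 2 of 18. The median difference was 1.21 for cathepsins, 0.64 for hydrolases, 0.77 for V-ATPase subunits and 1.3 for macrophage markers. Spp1 (3.90, adjusted p = 0.20) and Cd68 (1.95, adjusted p = 0.065) were among those whose difference did not pass. On the negative side, Lep differed by -4.95 (adjusted p = 0.001), as it stood at 69.8 ± 14.8 in WT on WD and 7.62 ± 5.12 in WT on chow, the opposite direction to EKO. In 1 of the 3 WT libraries on WD the genotype tag names EKO while the title names WT; its Apoe was within the WT range, and it was kept as WT.

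In EKO mice at 6 weeks, 12 genes (0.0848%) changed with diet. The difference between durations passed for 2734 genes (19.3%), 1640 of them more positive at 22 weeks (11.6%) and 1094 more negative (7.73%); it passed for 1221 without WD replicate 1 and for 1591 without replicate 3 of the chow group at 6 weeks. Col2a1 (4.31), Mmp13 (3.59), the heparan sulfate enzyme Hs6st2 (3.59), the stretch-responsive gene Ankrd1 (3.57, adjusted p = 0.045, lost in 9 of the 12 fits that left out a library) and the prostaglandin synthase Ptgs2 (3.35, adjusted p = 0.0016) led the positive side. Ankrd1 differed by 1.92 (adjusted p = 0.39) and Col2a1 by 3.62 (0.051) once the brown adipocyte term was in the fit. Among lists, 10 of 15 cathepsins, 9 of 20 modulated smooth muscle genes and 8 of 25 collagens were more positive at 22 weeks, and 6 of 18 macrophage markers were. The median difference was 1.04 for cathepsins and 1.27 for macrophage markers. Itgax, at 33.5 ± 26.0 and 7.39 ± 0.867 on WD and chow at 6 weeks, differed by 1.73 (adjusted p = 0.13). Cebpb (-3.44) and Ucp1 (-2.92, adjusted p = 0.0096) led the negative side. Ucp1 averaged 3356.6 on WD and 836.2 on chow at 6 weeks, and 9 of 14 brown adipocyte and 22 of 27 respiratory chain genes were more negative at 22 weeks. With the brown adipocyte term in the fit, the difference of Ucp1 was -0.42 (adjusted p = 0.44), and 1667 genes passed, of which 800 were among the 2734. That term is made from brown adipocyte genes, so differences of brown fat genes such as Ucp1 shrink under it by construction.

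In EKO/hA-I mice, 5409 genes (38.2%) changed with diet at 22 weeks, higher on WD for 20.7%, and the diet difference was unlike that of EKO for 4840 genes (34.2%), 2630 more positive in EKO (18.6%) and 2210 more negative (15.6%). That count did not hold with other tissue signal in the fit: 124 passed with the brown adipocyte term and 0 with the 4 tissue terms, where 2061 had an unadjusted p under 0.05. All 13 skeletal muscle genes, 11 of 14 brown adipocyte genes and all 27 respiratory chain genes were higher on WD than on chow in the EKO/hA-I pair. Acta1, of skeletal muscle, averaged 405.8 ± 246.0 there on WD and 3.35 ± 2.45 on chow. The values that follow are therefore given as they stand, and the part of the other tissues in them was not tested further. Hs6st2 (difference 4.28), Col1a1 (3.74), Col3a1 (3.73), Ctsk (3.72) and Acan (3.60) were the most positive. Col1a1 averaged 999.4 ± 380.0 on WD and 3862.6 ± 1370.0 on chow in EKO/hA-I, and 22 of 25 collagens differed in that direction. Gla, at 10.1 ± 3.3 on WD and 10.0 ± 0.607 on chow in EKO/hA-I, differed by 2.39 (adjusted p = 8.1e-06). Macrophage markers rose in both pairs, 18 of 18 in EKO and 11 of 18 in EKO/hA-I, and the difference passed for 2, with a median of 0.88. The 3 other pairs share no library with one another, but each of these tests contains the same 6 EKO libraries.

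**Figure D5:**
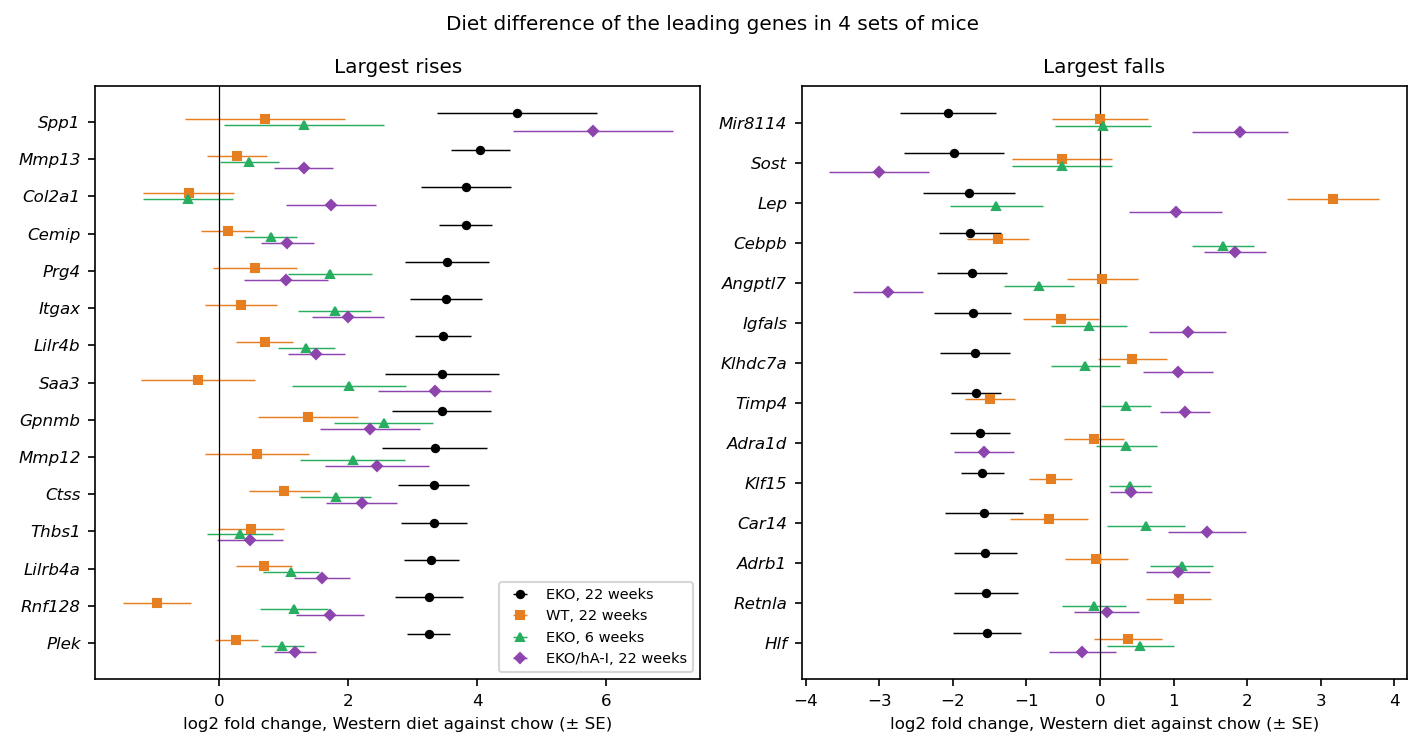
Log2 fold change ± SE, WD against chow (horizontal axis), of the 15 largest rises and 14 of the 15 largest falls of EKO mice at 22 weeks, in EKO at 22 weeks (black), WT at 22 weeks (orange), EKO at 6 weeks (green) and EKO/hA-I at 22 weeks (purple). Since the genes were chosen in the black set, its points lie outermost by choice; Spp1 at 5.79 in EKO/hA-I and Lep at 3.17 in WT are points that depart from that.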

How the data were processed

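The authors deposited 1 table of normalised signal per gene symbol and library, 14174 genes in 35 columns. Per the submitters' processing notes, Bowtie 0.12.2, Bowtie2, RSEM and the builds mm8 and mm9 were used, with no role or order; counting, filters and the scaling method are not given in the sources used here. Of values at or below 1.5, 72.7 to 77.2% in the 6 libraries lay within 0.02 reads of a whole number, so whole reads were not recovered and no count test was run. Because scaling was done before deposit, a gene's value depends on the other genes of its library; median-ratio rescaling was tried as an alternative. Spreadsheet dates stand in place of 23 symbols, and 2 symbols are repeated.

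Groups were taken from the titles. Values were tested as log2(value + 1) with limma 3.58.1 under R 4.3.3, using its trend and robust options, in 1 fit of 12 groups without covariates (23 residual degrees of freedom), over 14157 genes at 1 or more in at least 3 libraries. Tests are two-sided. Differences of differences came from the same fit. On simulated data with 14140 genes the fit recovered 62% of changes of 1 and 90% of changes of 2 on the log2 scale, with 10 false calls. Each gene was drawn independently around a mean common to all groups, and 100 genes of each size were changed, none at the lowest values. The simulation held no tissue signal shared between genes, so it cannot show how many false calls such signal would give.

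Genes were named by rule: Apoe; up to 15 rises and 15 falls of largest fitted size among those past the threshold whose diets did not overlap and whose log2 values averaged 3 or more over the 6 libraries, without predicted genes and receptor segments; up to 8 values per gene list with the 4 of smallest p; and, for each difference of differences, up to 5 of each sign. Some genes that the rule names are not reported here. The members and lists were chosen with earlier results of these data known. Alternatives were other pseudocounts (0.1 and 5), no filter and a stricter one, the compared groups alone, a replicate block, terms for tissue signal and for Y-linked genes, and each library left out in turn.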

Additional observations from a re-analysis of the deposited data

Results flagged for a closer look

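The diet difference of EKO mice at 22 weeks differed from that of another pair of groups, by a test of the difference itself, for 879 genes against WT at 22 weeks, for 2734 against EKO at 6 weeks and for 4840 against EKO/hA-I at 22 weeks. The following genes, with the difference of the 2 log2 fold changes, were the largest of each sign that met the naming rule.

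Against WT, the positive side was led by Col2a1 (4.3), Rnf128 (4.21), Mmp13 (3.78), Cemip (3.69) and Itgax (3.18). The negative side was led by Lep (-4.95), the mast cell tryptase Tpsb2 (-2.96), Retnla (-2.62), Lrrc15 (-2.39) and Gpc3 (-2.38). With the 4 tissue terms in the fit, Itgax (2.51, adjusted p = 0.13) and Retnla (0.055) did not pass, with the compared groups alone Retnla (0.12) and Gpc3 (0.075) did not, and at a pseudocount of 0.1 Cemip (0.063) did not. Tpsb2 averaged 13.8 ± 6.79 (SD, n = 3) in WT on WD and 2.52 ± 1.88 on chow, while in EKO it averaged 5.34 ± 1.34 on WD and 10.6 ± 0.945 on chow.

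Against 6 weeks, the positive side was led by Col2a1 (4.31), Mmp13 (3.59), Hs6st2 (3.59), Ankrd1 (3.57) and Ptgs2 (3.35). The negative side was led by Cebpb (-3.44), the thioesterase Acot1 (-3.24), Ucp1 (-2.92), Tuba8 (-2.88) and the fatty acid binding protein Fabp3 (-2.79). With the brown adipocyte term in the fit Acot1 came to -0.9 (adjusted p = 0.64), Ucp1 to -0.42 (0.44), Tuba8 to -0.95 (0.22), Fabp3 to -0.82 (0.25) and Ankrd1 to 1.92 (0.39), and none of them passed. For Ucp1 this was largely set in advance, as the term is made from brown adipocyte genes. Acot1 and Ankrd1 each also lost their call in 9 of the 12 fits that left out a library (adjusted p = 0.060 to 0.13 for both), and Tuba8 with the compared groups alone (0.050). Cebpb averaged 71.2 ± 13.1 on WD and 21.5 ± 1.06 on chow at 6 weeks, and 27.9 ± 5.72 and 96.2 ± 8.29 at 22 weeks.

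Against EKO/hA-I, the positive side was led by Hs6st2 (4.28), Col1a1 (3.74), Col3a1 (3.73), Ctsk (3.72) and Acan (3.60). The negative side held genes of skeletal muscle fibres, Acta1 (-7.87), Myh4 (-7.49), Atp2a1 (-7.33), Tnnc2 (-5.86) and Tnnt3 (-5.83). Without EKO WD replicate 1, Myh4 (0.12), Atp2a1 (0.053) and Tnnt3 (0.070) did not pass, and Myh4 lost its call in 7 of the 12 such fits and Tnnt3 in 3. With terms for the signal of 4 other tissues in the fit, 0 differences against EKO/hA-I passed. For the skeletal muscle genes this was largely set in advance, as a mean of such genes is among those terms.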

How the results depend on the processing

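The 2644 genes changed in EKO at 22 weeks, 1964 higher and 680 lower, numbered 1698 with only the compared groups in the fit (367 lower), 1281 with a replicate block (1023 higher and 258 lower) and 910 where a log2 difference of at least 1 was also asked for. The first 2 settings use fewer libraries, and the second of them also adds terms for the replicate number. The third is a stricter rule. The cause of the other shifts given here, those of the first 2 settings included, was not tested. With each library left out in turn they ran from 1403 to 2762 in all, from 1229 to 1973 higher and from 174 to 789 lower. Of the settings that kept every library, pseudocounts of 0.1 and 5, no filter, a stricter filter (10 in place of 1), rescaling, the tissue and Y-linked terms and limma without robust estimation gave 2420 to 2981. Against WT, 879 genes passed; 1689 did with the brown adipocyte term, 365 with the compared groups alone and 300 with the block, and 486 to 1032 with a library left out. Against 6 weeks, 2734 genes passed; 1682 did with 4 tissue terms (785 of them among the 2734), 1667 with the brown adipocyte term (800 among the 2734), 1469 with the compared groups alone, 925 with the block and 1221 to 3158 with a library left out. Against EKO/hA-I, 4840 passed; 0 did by limma with 4 tissue terms (2061 at an unadjusted p under 0.05) and 124 with the brown adipocyte term, and 3475 to 5015 with a library left out.

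The titles share replicate numbers between diets, and the labels used here do not say whether libraries were paired. Deviations of same-numbered libraries correlated at 0.051, 0.022 and 0.245, the last being the highest of all pairs. WD replicates 2 and 3 correlated best with the chow library of their own number, and WD replicate 1 with chow replicate 2 (0.141). These values cannot settle whether the numbers mark pairs, and the block result is given here alone. Of the 2644 genes, 1137 also passed with the block. Of 216 genes of the text, 31 lost and 3 gained a call with it, 26 and 6 with the compared groups alone, and 39 lost it without WD replicate 1. Among the 31 were Col2a1 (adjusted p = 0.059), Psap (0.052), Ibsp (0.063), Lamp1 (0.21) and Ctsf (0.051). In the difference against WT, Col2a1 (0.056), Retnla (0.10) and Lrrc15 (0.077) did not pass with the block. Among the 26 were Mlxipl (adjusted p = 0.19), Tfe3 (0.16), Retnla (0.14), Oas1a (0.13), Cox6a1 (0.11) and Slc2a4 (0.11). Retn (0.093), Dgat2 (0.086), Mrc1 (0.075), Csf3r (0.074) and Ndufb8 (0.063) were lost there too. Among genes that did not pass, the sign turned for Cd36 (0.43 with 4 tissue terms, 0.45 with the brown adipocyte term, -0.37 to 0.14 with a library left out), Lpl (0.45, 0.56 and -0.21 to 0.06), C3 (-0.23 to 0.42 with a library left out), Lyve1 (-0.56 to 0.03) and S100a9 (-0.21 at a pseudocount of 5, -0.09 with the Y-linked term, -0.75 to 1.92 with a library left out). With 4 tissue terms the difference against EKO/hA-I turned positive for Myh4 (0.6), Atp2a1 (0.02) and Tnnt3 (0.2). These are skeletal muscle genes, and a mean of such genes is among the terms, so values near 0 follow largely from the fit itself. With 3 libraries in a group and no recovered read counts, small changes of low genes could not be detected.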
